A study of Mus musculus with 6 samples.

Results

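The AP-1 and EGR immediate early genes described here are Fos, Fosb, Fosl2, Jun, Junb, Jund, Egr1, Egr2, Egr3 and Atf3, which are 10 of the 24411 genes in the table. They were picked by symbol, because immediate early genes had been seen to be lower in LSD1-mKO in these same libraries. A lower level of the members in LSD1-mKO is therefore a property of how they were chosen, and their differences between genotypes are given as descriptions without a test. Poly(A) RNA of soleus (Sol), a slow muscle of the lower leg, was sequenced from 3 WT and 3 LSD1-mKO mice on a C57BL/6 background after voluntary wheel running (VWR), with 1 library per mouse. LSD1 is a histone demethylase encoded by Kdm1a. The LSD1-mKO mice carried floxed Lsd1 alleles and a tamoxifen-inducible CreERT2 driven by the human ACTA1 promoter, which is active in muscle fibers, while the WT mice had floxed Lsd1 without CreERT2. All mice were 8 weeks old at the start, had a wheel for 38 days, ran for 3 days to become familiar with it, were then injected with tamoxifen (75 mg/kg) on 5 days in a row, and had their running distance recorded over the next 30 days. Per the study's methods, male mice were used and were kept off the wheel and fasted before the tissue was taken. The other cells of the muscle do not use this promoter, and sedentary mice were not analysed here. The comparison asks how these genes differed between muscles with and without LSD1 in their fibers after training.

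AP-1 is a dimer of basic leucine zipper proteins, most often a FOS protein joined to a JUN protein, that binds a short palindrome in promoters and enhancers. FOS proteins cannot form dimers with one another, whereas JUN proteins can, and ATF3 is a related zipper protein that often represses when it acts alone. The EGR proteins are zinc finger factors that bind GC-rich sites. Many genes of this kind are switched on within minutes by growth factors, calcium, stress or contraction, without new protein synthesis. They are induced through serum response factor (SRF) at CArG boxes and through CREB at cyclic AMP response elements (CRE), and their mRNAs are short-lived. Jund, by contrast, is often expressed constitutively. In muscle many early genes respond to a bout of exercise and to stretch, and also to the dissection and handling of the tissue.

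The sequences in front of the genes differ between members, and 3 windows with letters that match known elements are shown. They belong to a gene with a large difference (Fos), to a main dimer partner of FOS (Jun) and to Egr2. Egr2 was the only member with a match to the CArG box in its window. Each window runs from 250 bases before to 50 bases after a RefSeq transcription start (build GRCm38.p6). Capitals mark the CRE half-site TGACG (on either strand) in Fos and Egr2, the TATA box TATAAA in Fos, the CArG box in Egr2 and TGACATCA, a variant of the AP-1 site, in Jun.
Fos, chr12:85473640-85473939, plus strand: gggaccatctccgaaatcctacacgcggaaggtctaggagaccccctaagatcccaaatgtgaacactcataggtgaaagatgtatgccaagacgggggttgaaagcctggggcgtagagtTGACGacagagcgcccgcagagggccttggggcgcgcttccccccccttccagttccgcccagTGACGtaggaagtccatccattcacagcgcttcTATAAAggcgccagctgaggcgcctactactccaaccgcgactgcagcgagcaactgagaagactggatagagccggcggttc
Jun, chr4:95052173-95052472, minus strand: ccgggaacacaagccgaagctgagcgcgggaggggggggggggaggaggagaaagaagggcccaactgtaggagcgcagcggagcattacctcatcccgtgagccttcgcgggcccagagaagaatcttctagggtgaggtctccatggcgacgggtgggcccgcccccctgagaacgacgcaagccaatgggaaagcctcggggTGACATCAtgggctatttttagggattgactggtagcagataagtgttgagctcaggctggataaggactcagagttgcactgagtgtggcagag
Egr2, chr10:67537619-67537918, plus strand: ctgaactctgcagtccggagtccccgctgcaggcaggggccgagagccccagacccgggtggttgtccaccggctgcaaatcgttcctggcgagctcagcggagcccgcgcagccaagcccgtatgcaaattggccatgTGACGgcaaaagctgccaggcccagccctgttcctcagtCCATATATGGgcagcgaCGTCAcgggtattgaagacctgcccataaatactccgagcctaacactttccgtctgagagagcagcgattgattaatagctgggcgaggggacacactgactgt

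Windows were found for 8 of the 10 members, 12 windows in all, and not for Egr1 or Egr3. The Jund window (chr8:70697489-70697788, plus strand) ends before the start of the gene in GENCODE vM21 (70698949). The sequence just before that start was therefore not searched. Fos had half-sites at -129 to -125 and at -66 to -62 from the start, which is base 0, and a TATA box at -33 to -28. Jun had TGACATCA at -45 to -38, and the Egr2 window shown had a CArG box at -72 to -63 between half-sites at -111 to -107 and -55 to -51. Searched on both strands, the half-site was present in 5 of the 8 members (Fos, Fosb, Junb, Egr2 and Atf3), against 23.0% of 27025 genes with windows of this length. The full CRE TGACGTCA, which contains the half-site, was in 0 of the 8 and in 2.03% of all genes. Matches to the CArG box were found in Egr2 alone among the 8, against 1.81% of all genes, and to TGACATCA in Jun alone, against 4.18%. TATAAA was in the windows of Fos and Junb and in 15.7% of all genes, while the AP-1 site TGAGTCA (5.95% of all genes) and the EGR site GCGTGGGCG (0.707%) were in none of the 8. The match of letters in a window does not show that a factor binds there, and elements outside the windows were not searched.

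The genes were also alike in structure. Exons were counted in 1 transcript per gene of GENCODE vM21, the longest protein-coding transcript where there was any. In it Jun, Junb and Jund each had a single exon, as 2.9% of the tested genes did. The Egr genes had 2 exons and the others 4, against a median of 9 exons. The span is that of the whole gene, and for Junb it was 4235 bases, against 1809 bases in that transcript. The median span was 5287 bases for the members and 24502 bases for the tested genes, and Atf3 was the only member above the latter. AUUUA, the core of AU-rich elements of short-lived mRNAs, occurred in the 3′ UTR of 10 of the 10 members, from 1 copy in Fosb and Jund to 8 copies in Fosl2, and in 70.2% of the tested genes. Its median density was 2.51 per kilobase in the members and 1.31 in the tested genes.

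The libraries held 8940206 to 13798059 estimated counts, and the lowest total was that of WT replicate 1. Levels are given as counts per 1000000 after TMM scaling (CPM) and, where genes are compared with one another, as transcripts per 1000000 (TPM), which correct for transcript length. Kdm1a was at 40.5, 38.2 and 33.6 CPM in WT and at 14.6, 16.6 and 16.6 CPM in LSD1-mKO (log2 fold change -1.23, SE 0.11, adjusted p = 0.016, edgeR's quasi-likelihood test). The labels do not say whether the mice of a genotype were littermates. The 12 skeletal muscle fiber markers summed to 107090 to 141650 CPM in WT and to 118270 to 126240 CPM in LSD1-mKO, with 0 of the 12 at 0. Since whole muscle was used, fewer cells of a type and less RNA per cell cannot be told apart.

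Per length, the JUN genes were the most abundant members. Jund was at 126 ± 16.6 TPM in WT and 99.6 ± 9.85 in LSD1-mKO (SD, n = 3 each, as below), and Jun was at 101 ± 19.6 and 74.7 ± 13.4. Their ranges overlapped between WT mice, where Jun reached 121 TPM in replicate 3 and Jund 116 in replicate 1, but Jund was above Jun within each of the 6 libraries. Atf3 (27.5 ± 10.4 TPM), Junb (26.3 ± 13.6) and Fos (20.2 ± 11.7) followed in WT, with ranges that overlapped between mice. Within libraries, Atf3 was above Fos in 6 of 6, Junb above Fos in 5 of 6 and Junb above Atf3 in 5 of 6, the exception for Junb being WT replicate 1. Fosl2 was at 9.999 ± 1.26 TPM and Egr1 at 4.90 ± 1.56, and the lowest members were Egr2 at 1.18 ± 0.237, Egr3 at 0.728 ± 0.343 and Fosb at 0.695 ± 0.189. The order in LSD1-mKO was the same, except that Junb (21.9 ± 7.26 TPM) stood above Atf3 (18.7 ± 4.28) and Fosl2 (6.44 ± 0.94) above Fos (5.31 ± 2.21), and within the LSD1-mKO libraries this held in 3 of 3 for Junb over Atf3 and in 2 of 3 for Fosl2 over Fos. The 3 JUN genes made up 74.8% to 86.5% of the members' summed TPM in each library.

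**Figure D1:**
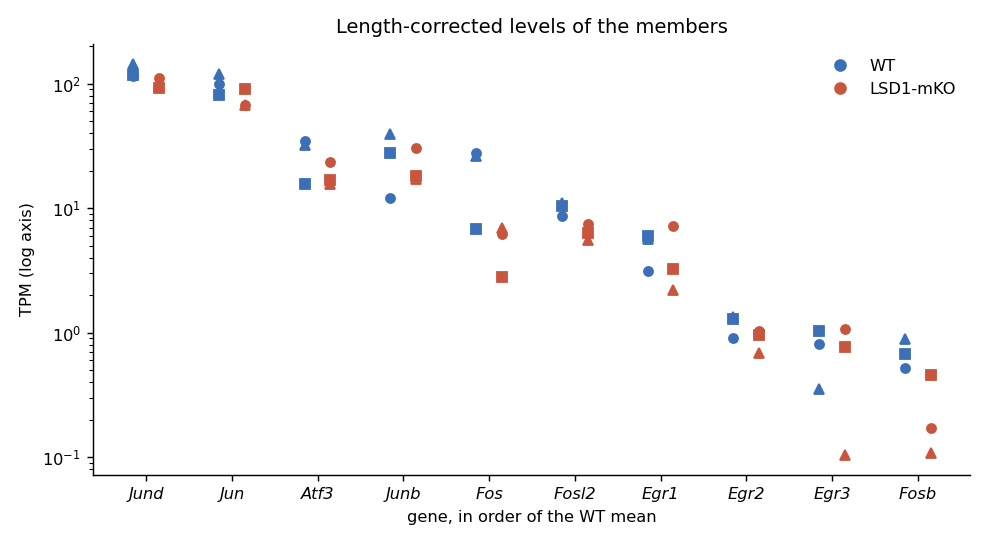
Level of each member in TPM on a log axis, with genes in order of their WT mean, each point 1 mouse, blue for WT and red for LSD1-mKO, and circles, squares and triangles for replicates 1, 2 and 3. Jund and Jun stand highest, at 126 and 101 TPM on average in WT, and Fosb lowest, at 0.695 TPM.

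Among the FOS genes, Fos had the largest difference of all members. Fos, the classical partner of JUN proteins, was at 28.8, 6.03 and 24.6 CPM in WT replicates 1, 2 and 3 and at 6.07, 2.68 and 6.61 CPM in LSD1-mKO. WT replicates 1 and 3 were high, but WT replicate 2 lay within the LSD1-mKO range, below LSD1-mKO replicates 1 and 3, so the genotypes overlapped. The mean of LSD1-mKO was 25.8% of that of WT (5.12 ± 2.13 against 19.8 ± 12.1 CPM), with a log2 fold change of -1.95 (SE 0.55). Without the highest WT library the percentage was 33.4%. In fits that dropped 1 mouse the log2 fold change lay between -2.39 (without WT replicate 2) and -1.60 (without WT replicate 1).

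Fosl2, which encodes the FOS-related protein FRA2, was at 27.7, 28.6 and 32.3 CPM in WT and at 22.3, 18.8 and 16.6 CPM in LSD1-mKO. Every LSD1-mKO library was below every WT library, and the libraries of a genotype lay close together. The means were 29.6 ± 2.44 and 19.2 ± 2.91 CPM, with a log2 fold change of -0.62 (SE 0.13) that ranged from -0.74 to -0.52 with 1 mouse left out. Fosl2 had a difference smaller than that of Fos but a within-genotype SD of 0.172 on the log2 scale, at the median of all tested genes, where Fos had 0.993 and stood at the 99.2 percentile.

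Fosb encodes another FOS partner of JUN and had only 8, 12 and 17 counts in WT and 4, 11 and 2 in LSD1-mKO, which did not pass the filter on low counts. Its levels were 0.964, 1.08 and 1.51 CPM in WT and 0.296, 0.796 and 0.186 CPM in LSD1-mKO, with no overlap. The LSD1-mKO mean (0.426 ± 0.325 CPM) was 36.0% of the WT mean (1.19 ± 0.288 CPM). Summed over the 3 FOS genes, the level was 36.8, 17.8 and 38.0 TPM in WT and 13.9, 9.56 and 12.6 TPM in LSD1-mKO, again without overlap. Fos supplied 75.2%, 38.0% and 68.6% of that sum in WT and 45.2%, 29.1% and 54.8% in LSD1-mKO, so that its share in WT replicate 2 was within the LSD1-mKO range.

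The JUN genes, whose proteins pair with FOS or with one another, differed less. Jun was at 156, 110.2 and 172 CPM in WT and at 98.0, 131 and 97.3 CPM in LSD1-mKO, and LSD1-mKO replicate 2 was above WT replicate 2. Its means were 146 ± 32.2 and 109 ± 19.3 CPM (log2 fold change -0.42, SE 0.18). Jund, often the constitutive member of the family, was at 95.1, 82.9 and 108 CPM in WT and at 84.9, 70.3 and 72.5 CPM in LSD1-mKO. Only LSD1-mKO replicate 1 crossed into the WT range, above WT replicate 2, and the log2 fold change was -0.33 (SE 0.12).

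Junb, which encodes a JUN protein that can restrain growth and also maintains muscle mass, was at 10.7, 21.2 and 31.7 CPM in WT and at 25.2, 15.1 and 14.2 CPM in LSD1-mKO. WT replicate 1 was the lowest of the 6 libraries and WT replicate 3 the highest, so the WT range enclosed LSD1-mKO. The log2 fold change was -0.24 (SE 0.36), and it was 0.17, above 0, without WT replicate 3. The 3 JUN genes together were at 227, 227 and 305 TPM in WT and at 208, 201 and 179.8 TPM in LSD1-mKO, with no overlap, although each of them overlapped on its own. Of single tested genes, 6.1% were lower in LSD1-mKO without overlap. As the members were picked for this direction, nothing is read from the JUN or FOS sums. The ratio of Fos to Jun in TPM was 0.279, 0.0828 and 0.216 in WT and 0.0936, 0.0309 and 0.103 in LSD1-mKO, and WT replicate 2 was below LSD1-mKO replicates 1 and 3.

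The EGR genes did not separate by genotype. Egr1, a zinc finger factor induced through SRF, was at 6.87, 11.3 and 11.3 CPM in WT and at 14.7, 6.59 and 4.47 CPM in LSD1-mKO, where replicate 1 was the highest of all 6 libraries. Its log2 fold change was -0.19 (SE 0.40) and became 0.10 without LSD1-mKO replicate 3 and -0.83 without LSD1-mKO replicate 1. Egr2 was at 1.33, 1.62 and 1.78 CPM in WT and at 1.41, 1.30 and 0.931 CPM in LSD1-mKO (log2 fold change -0.37, SE 0.30), and the 2 genotypes overlapped through WT replicate 1. Egr3, which in muscle is known for its role in spindles, had 13, 19 and 7 counts in WT and 26, 19 and 2 in LSD1-mKO. Its levels of 1.57, 1.71 and 0.622 CPM in WT spanned much of the 1.92, 1.38 and 0.186 CPM in LSD1-mKO. The log2 fold change of Egr3 was -0.10 (SE 0.65) and was above 0 in 3 of the 6 fits that left 1 mouse out, reaching 0.36 without LSD1-mKO replicate 3. Summed, the 3 EGR genes were at 4.82, 8.29 and 7.32 TPM in WT and at 9.24, 4.95 and 2.98 TPM in LSD1-mKO, with overlap.

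Atf3, a zipper protein induced by stress, was at 33.9, 13.1 and 28.7 CPM in WT and at 21.5, 15.1 and 14.2 CPM in LSD1-mKO. WT replicate 2 was the lowest of the 6 libraries, as it was the lowest WT library for Fos, Jun and Jund. The genotypes overlapped, and the log2 fold change was -0.56 (SE 0.32), with a range of -0.88 (without WT replicate 2) to -0.29 (without WT replicate 1).

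**Figure D2:**
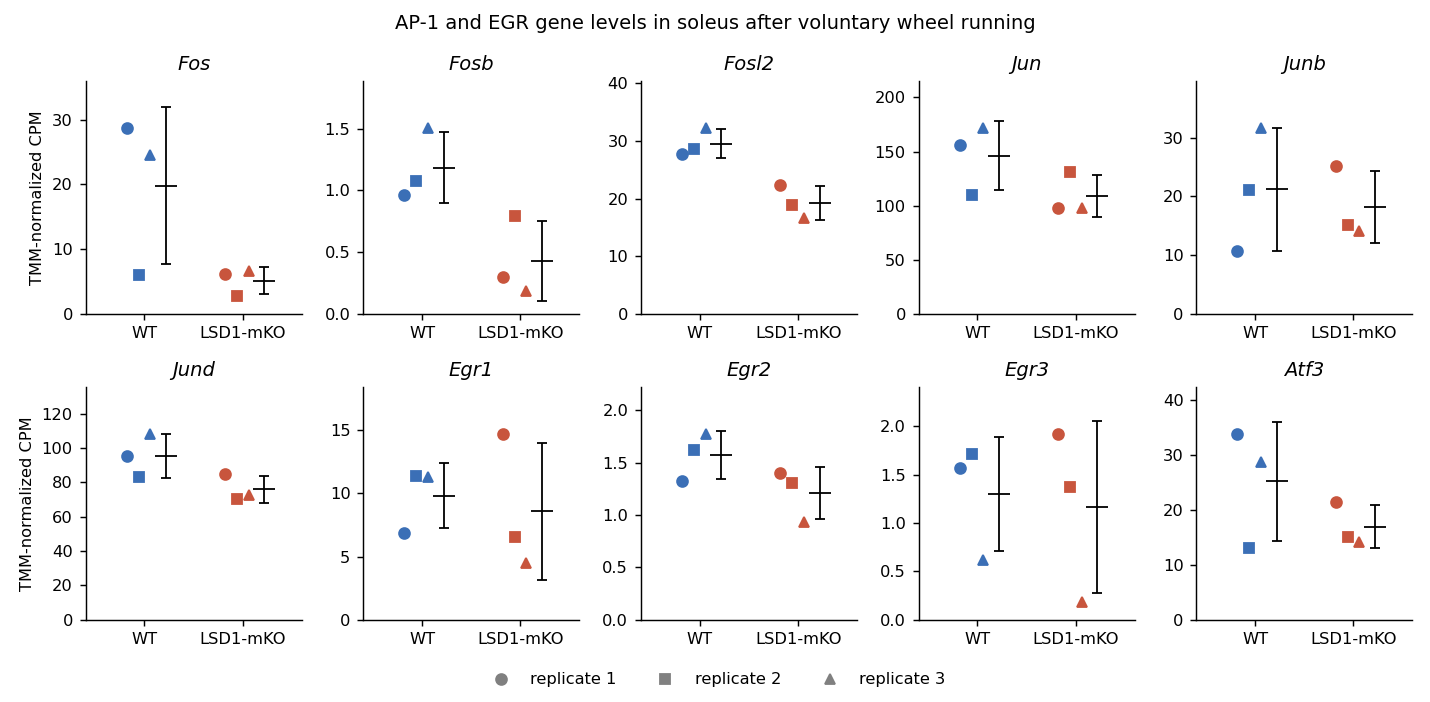
TMM-normalized CPM of each member on a linear axis from 0, with 1 point per mouse (circle, square and triangle for replicates 1, 2 and 3), and a horizontal bar with whiskers for the mean ± SD of 3 mice. Fosl2 and Fosb show no overlap between WT in blue and LSD1-mKO in red, and the other 8 genes overlap.

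Over the whole group, 9 of the 9 members that passed the filter had a fitted log2 fold change below 0, where 54.8% of all tested genes did, and the mean CPM was lower in LSD1-mKO for 10 of 10. Every LSD1-mKO library was below every WT library for 1 of the 9 (Fosl2), where this held for 6.1% of the tested genes, and for Fosb, which was not tested. The median log2 fold change was -0.37 in the 9 members and -0.02 in all tested genes. The median of the members was -0.68 without LSD1-mKO replicate 1 and -0.29 without WT replicate 3. Because the members were picked on this contrast, nothing is read from these counts and medians. The spread between mice of a genotype was wide. Its median SD over the 9 members was 0.562 on the log2 scale, where that of all tested genes was 0.172, and 7 of the 9 were above the latter. By percentile of the SD, Egr3 (99.5) and Fos (99.2) varied the most, followed by Egr1 (96.5), Junb (95.8) and Atf3 (93.8). The percentiles are over tested genes of all levels, and Egr3 had only 2 to 26 counts per library, which adds to its spread.

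**Figure D3:**
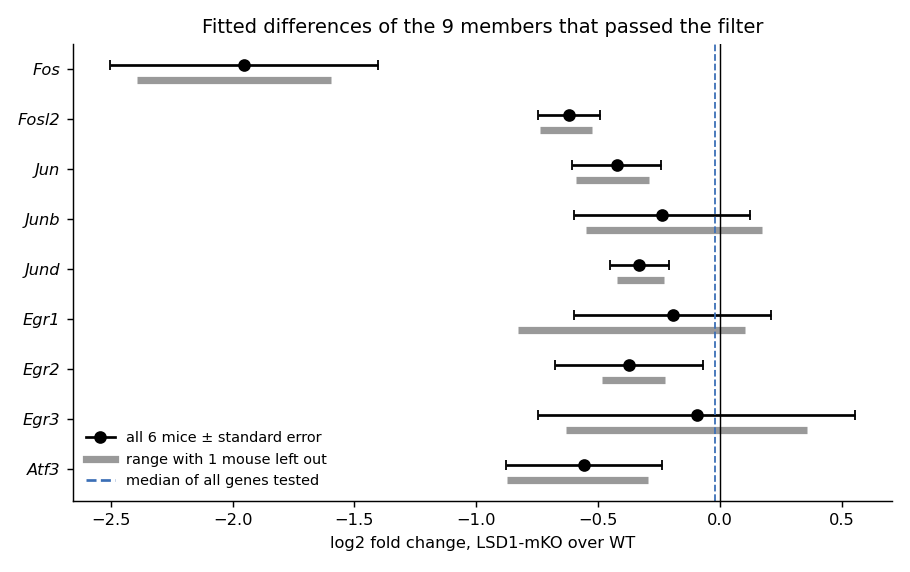
Fitted log2 fold change of LSD1-mKO over WT for the 9 members that passed the filter (black point ± standard error), with the range over fits that left out 1 mouse in grey and the median of all tested genes as a dashed line. Fos is lowest at -1.95, and the grey ranges of Junb, Egr1 and Egr3 cross 0.

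The members did not vary together as one block. WT replicate 3 held the highest level of 6 members and LSD1-mKO replicate 3 the lowest level of 6. Over the 6 libraries, the log2 CPM of Fos had a Pearson r of 0.856 with Atf3 and of 0.883 with Jund, and after the mean of each genotype was removed these were 0.855 and 0.739. Junb had an r of 0.782 with Egr1 and of 0.677 with Egr2, and Egr1 and Egr2 had 0.811, but Junb had 0.034 with Fos and 0.027 with Atf3. Fos and Atf3 were thus high in WT replicates 1 and 3, whereas Junb and Egr1 were low in WT replicate 1 and high in LSD1-mKO replicate 1. Of the 36 pairs of tested members, 35 had an r above 0, with a median of 0.537, and 27 after removal of the genotype means, with a median of 0.396. The points share library and scaling, and all r values are descriptions over 6 libraries.

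Markers of other cells in the muscle moved with some of the members. The 8 fibroblast markers summed to 1430.0, 3678 and 4650.3 CPM in WT and to 2995, 1467 and 1607 CPM in LSD1-mKO, and the 11 macrophage and leukocyte markers to 128, 385 and 322 CPM in WT and to 248, 125 and 187 CPM in LSD1-mKO. Both sums were low in WT replicate 1 and higher in LSD1-mKO replicate 1 than in the other 2 LSD1-mKO libraries. Junb had its lowest level in WT replicate 1 and Junb and Egr1 their highest LSD1-mKO level in replicate 1, where the fibroblast sum was also highest in that genotype. In the fit, 8 of 8 fibroblast markers (median log2 fold change -0.54) and 9 of 9 tested macrophage and leukocyte markers (-0.62) were lower in LSD1-mKO, where 54.8% of all tested genes were. Of these markers edgeR called 0, where it called 0.0156% of all tested genes, and DESeq2 and voom called 0. Under an unadjusted p of 0.05 there were 0 of them, where 2.88% of all tested genes were lower at that threshold. None of these markers was at 0 in every library. Their part in the levels of the members was not tested. Fos and Atf3, by contrast, were high in WT replicate 1, where both sums were lowest among WT. The 10 endothelial markers spanned 717 to 968 CPM in WT and 715 to 853 in LSD1-mKO, the 8 smooth muscle and pericyte markers 606 to 762 and 662 to 734, the satellite cell markers 43.5 to 52.5 and 41.9 to 65.0, the Schwann cell markers 157 to 171 and 149.7 to 178, the adipocyte markers 534 to 614 and 516 to 606, and the red blood cell markers 201 to 535 and 259.8 to 419.9. Within these sums, the endothelial gene Vwf was lower in every LSD1-mKO library than in every WT library (log2 fold change -0.46, SE 0.14, adjusted p = 0.619, edgeR), and the globin gene Hba-a1 was at 13.5, 5.76 and 0 CPM in WT and at 2.59, 78.0 and 202 CPM in LSD1-mKO. Hba-a1 shares reads with its near-identical copy Hba-a2, so its values are uncertain. Neutrophil markers were below 2 CPM in sum in every library.

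**Figure D4:**
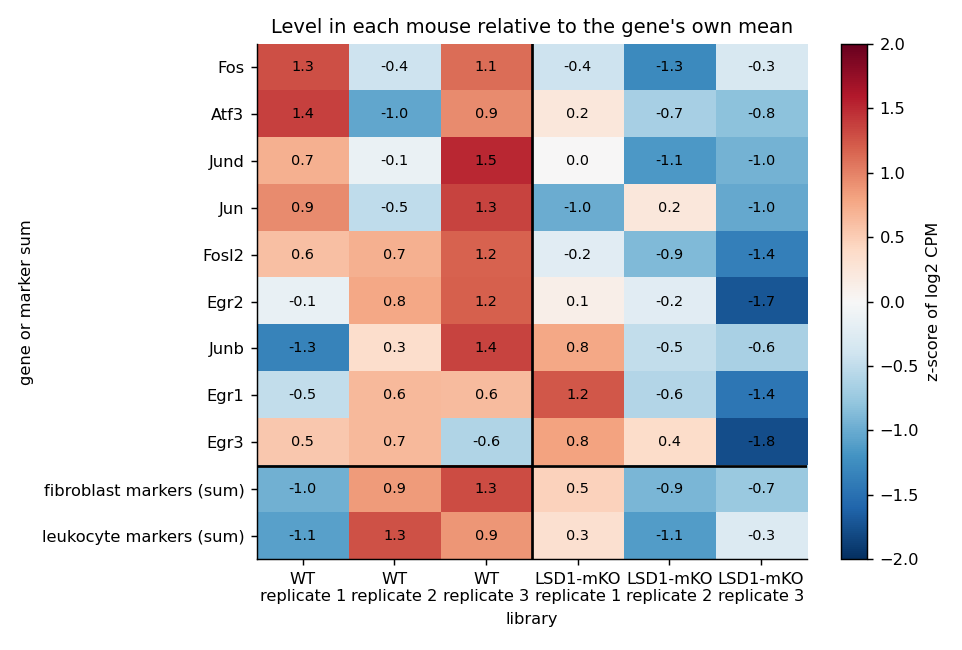
Log2 CPM of the 9 tested members in each library as a z-score over the 6 libraries (red above and blue below the gene's own mean, value printed in each cell), with the summed fibroblast and leukocyte markers below the line. Fos and Atf3 are red in WT replicates 1 and 3, whereas Junb, Egr1 and both marker sums are blue in WT replicate 1.

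The relatives, upstream factors and targets of the members were looked at in 7 lists, with 111 of 126 genes tested. Of these edgeR called 0, where it called 0.0156% of all tested genes. Unadjusted p values under 0.05 were found for 12 genes that were lower and for 0 that were higher, against 2.88% and 3.52% of all tested genes. Of the 12, 10 were in the list of other early genes, and the other 6 lists held 2 of 89 tested. DESeq2 called 3 as lower (0.0702% of all tested genes), which were all other early genes, and limma voom called 0. All LSD1-mKO libraries were below all WT libraries for 13 listed genes and above for 2, where 6.1% of all tested genes were below and 6.63% above. Of the 13, 7 were in the list of other early genes. The list of other AP-1 and EGR genes, with cofactors, had 8 tested, of which 4 were fitted lower, with a median of -0.03. Fosl1, which encodes FRA1, and Egr4 were at 0 counts in every library. The AP-1 repressor gene Jdp2 was at 12.1 ± 2.05 and 11.4 ± 0.523 CPM (log2 fold change -0.09), and the small Maf gene Maff at 19.3 ± 6.9 and 14.7 ± 5.07 CPM (-0.39). Nab1 and Nab2, which encode corepressors of EGR proteins, had log2 fold changes of 0.08 and 0.03.

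Genes for the factors through which many early genes are induced came next. Of 14 SRF and CREB factor genes tested, 9 were fitted lower, with a median of -0.06 and a range of -0.22 to 0.26. Srf was at 91.4 ± 4.77 CPM in WT and 93.0 ± 8.13 in LSD1-mKO (log2 fold change 0.03, SE 0.09, adjusted p = 0.967, edgeR). Elk1 (0.16) and Elk4 (0.06), which encode partners of SRF, Creb1 (-0.13) and Crem (0.26) had log2 fold changes that did not pass the test. In the MAP kinase list 13 of 25 tested genes were fitted lower, with a median of -0.01. Mapk3, Mapk8 and Mapk14, which encode ERK1, JNK1 and p38α, had log2 fold changes of -0.18, 0.09 and 0.14. These are mRNA levels, and kinase activity was not measured.

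Of the feedback genes of the pathway 11 of 16 were fitted lower, where 54.8% of all tested genes were, with a median of -0.13 and 0 under an unadjusted p of 0.05. Dusp1, a MAP kinase phosphatase gene that is itself an early gene, was at 137, 81.4 and 96.4 CPM in WT and at 95.2, 54.9 and 79.3 CPM in LSD1-mKO (log2 fold change -0.46, SE 0.23, adjusted p = 0.767, edgeR). Dusp6 had a log2 fold change of -0.28, and Zfp36, whose protein binds AU-rich elements and promotes mRNA decay, of -0.11. Targets of AP-1 and EGR had 10 of 16 fitted lower, with a median of -0.14. Timp1, an inhibitor of metalloproteinases, had a log2 fold change of -0.67 (SE 0.41) and Cd44, a receptor for hyaluronan, of -0.43 (SE 0.26), and both overlapped between genotypes. Icam1, an adhesion molecule gene named after its values were seen, was the 1 target under an unadjusted p of 0.05 (log2 fold change -0.64, SE 0.20, adjusted p = 0.631, edgeR), with every LSD1-mKO library below every WT library. In the list of inducible heat shock genes, which respond to stress of the tissue, 5 of 10 were fitted lower, with a median of 0.04. Hspa1a was at 72.3, 43.2 and 46.3 CPM in WT and at 74.4, 42.6 and 40.7 CPM in LSD1-mKO, and Hspa1b and Dnajb1 had log2 fold changes of -0.08 and -0.15.

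The list of other early genes, which was also drawn up with earlier results of these libraries known, had 0 of 22 tested genes called by edgeR. In it 21 were fitted lower (54.8% of all tested genes), 10 were lower under an unadjusted p of 0.05 (2.88%) and 7 were lower without overlap (6.1%), with a median of -0.45. As the list was not independent of these data, nothing is read from its counts. The 3 genes called by DESeq2 were Btg2, Sik1 and Klf6, the last 2 of which are named after their values were seen. Btg2, an antiproliferative gene, was at 132, 87.0 and 226 CPM in WT and at 56.0, 54.1 and 63.2 CPM in LSD1-mKO (log2 fold change -1.36, SE 0.30, adjusted p = 0.377 with edgeR and 6.28e-04 with DESeq2). Nr4a1, an orphan nuclear receptor gene induced by contraction, was at 92.2, 51.4 and 134 CPM in WT and at 43.1, 36.8 and 76.3 CPM in LSD1-mKO, with overlap. WT replicate 2 was the lowest WT library for Btg2 and Nr4a1, as for Fos and Atf3. Ier2 (-0.21), Myc (-0.22) and Ccn1, listed as Cyr61 (-0.13), had smaller log2 fold changes, and Gadd45b was the 1 gene fitted higher (0.61).

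**Figure D5:**
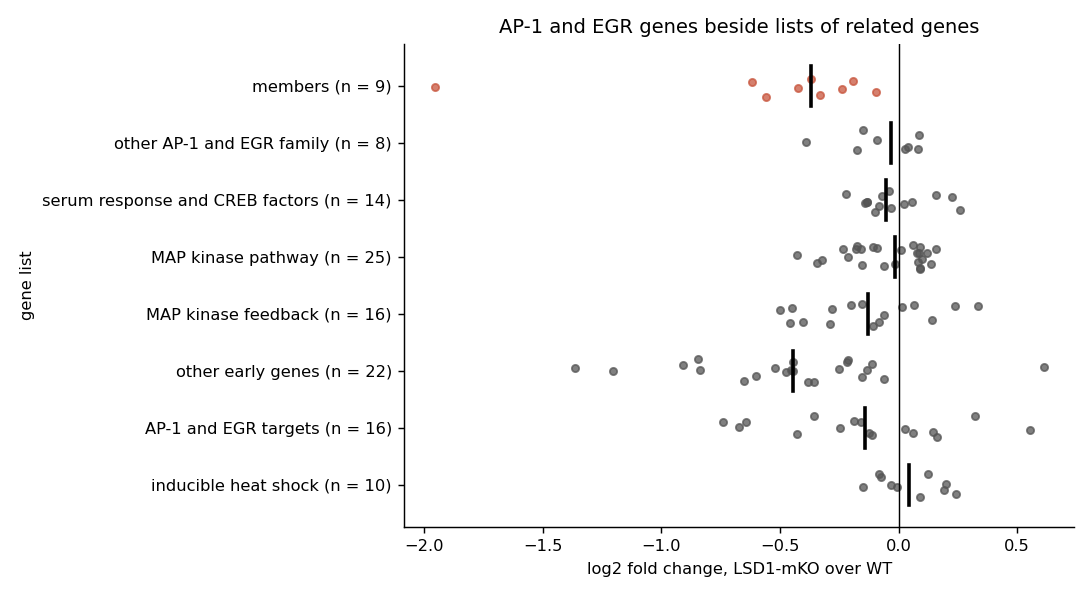
Fitted log2 fold change of LSD1-mKO over WT for each tested gene of the members (red) and of 7 lists of related genes (grey), with the list median as a black bar and the number tested beside each name. The medians are -0.37 for the members and -0.45 for the other early genes, and lie between -0.14 and 0.04 for the other 6 lists.

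The genes with a pattern most like that of the members were sought among 10204 genes with a mean of at least 5 CPM, by Pearson r over the 6 libraries between log2 CPM and the mean z-score of the 9 tested members. Since the members were picked as lower in LSD1-mKO, such a search leans toward genes that are lower there. The 10 highest were Rhbdl1 (r of 0.992), Zswim8 (0.986), Sln (0.984), Syvn1 (0.981), Mlf1 (0.98), Lmna, Dus1l and Rab7b (0.977 each), Mettl17 (0.976) and Nup155 (0.974). Of these 10 genes, 8 were lower in LSD1-mKO without overlap, and the adjusted p values of the 10 were 0.594 to 0.872 (edgeR). Sln, which encodes the SERCA inhibitor sarcolipin, was at 334, 307 and 409 CPM in WT and at 288, 248 and 216 CPM in LSD1-mKO. Lmna, the gene of the nuclear lamins A and C, had levels from 172.2 to 184.9 CPM in WT and from 156.1 to 171.6 CPM in LSD1-mKO. Early genes outside the group spread widely on this measure, from Klf6 at 0.836 (rank 243) and Btg2 at 0.782 (rank 408) through Nr4a1 at 0.476, Cyr61 at 0.13 and Csrnp1 at 0.109 to Gadd45b at -0.721 (rank 9328 of 10204). With so few libraries the choice was not stable, since 1 to 5 of the 10 genes were chosen again when 1 mouse was left out, and 1 when WT replicate 3 or LSD1-mKO replicate 3 was.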

How the data were processed

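Poly(A) RNA of Sol from 3 WT and 3 LSD1-mKO mice after VWR was sequenced as single-end reads of 75 bases. Alignment by the authors used STAR and mm10, and the values the authors deposited are unnormalized estimated counts, of which under 10% per library are not whole. The counting tool and annotation are not given in the sources used here, nor is whether strand was used. A deposited DESeq2 table with the authors' fold changes and p-values was not used. Columns were matched to mice by the number in the heading and in the label. No 2 libraries were near-identical (lowest chi-square per gene 9.39).

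The members and the gene lists were chosen with earlier results of these data known. Estimated counts were rounded and fitted with edgeR 4.0.16 in R 4.3.3 (TMM, filterByExpr by genotype, quasi-likelihood test, no covariate) over 12828 genes, with Benjamini-Hochberg adjustment and a threshold of 0.05. The SE is the log2 fold change over the square root of F. DESeq2 1.42.0 and limma 3.58.1 voom, other scalings and filters, the replicate number as a block and each mouse left out were alternatives. The tests were tried on simulated data. TPM used the longest protein-coding transcript of GENCODE vM21 (GRCm38), which gave a length to 99.7% of the counts, with the length of all exons merged as an alternative. Log2 CPM for z-scores and r used a prior count of 2. Replicates are mice, and p-values weigh the difference between genotypes against the spread between mice. The genes named outside the members are fixed examples of each list (1 of them is not reported here), Kdm1a, any list gene called, and the 10 genes most like the members, and others are named as seen afterwards (Egr4, Gadd45b, Sik1, Klf6, Csrnp1, Icam1, Vwf and Hba-a1). Reference promoters come from RefSeq.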

Additional observations from a re-analysis of the deposited data

How the results depend on the processing

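Over all tested genes, edgeR called 1 gene higher and 1 lower in LSD1-mKO. DESeq2 called 33 higher and 9 lower, limma voom 2 higher and 1 lower, and the fit with no filter on low counts 8 higher and 3 lower. With 1 mouse left out, 1 to 2 genes were called higher (2 without WT replicate 1) and 0 to 1 lower (0 without WT replicate 2 and without each LSD1-mKO replicate). Same-numbered mice did not deviate together (r of -0.352, -0.107 and -0.15 over 12828 genes), and the replicate block called 0 genes lower. With 3 mice per genotype, these r values cannot show whether such mice shared a litter, cage or day. The related lists had 3 genes called by DESeq2 and 0 by edgeR. With the length of all exons merged in TPM, the WT means of Jund (176 TPM), Jun (140.5), Egr1 (6.86) and Egr2 (1.44) were higher by more than their SD. The other members stayed within their SD, and the order of the WT means was the same. Of the 10 genes most like the members, 6 were shared with library size alone and 1 to 5 with 1 mouse left out. The causes were not tested. For the 9 members that passed the filter, 71 of 71 log2 fold changes from alternatives that kept all 6 mice were below 0, as were 120 of 125 in all. These fits reuse the libraries in which the members were picked as lower, so nothing is read from the signs. The 5 exceptions were Junb without WT replicate 3 (0.17), Egr1 without LSD1-mKO replicate 3 (0.10) and Egr3 in 3 fits. With 1 mouse left out, the median of the members was lowest at -0.68 (LSD1-mKO replicate 1 dropped) and highest at -0.29 (WT replicate 3 dropped). Fosb, Egr2 and Egr3 had few counts, and 3 mice per genotype limit the precision of all members.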
